A study of Homo sapiens with 40 samples.

Results

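HEK293T cells, a human embryonic kidney line, carried the engineered peroxidase APEX2 in the mitochondrial matrix, and 12 of the 40 libraries of the series address what a thionucleoside label on newly made RNA adds to peroxidase labelling among nuclear-encoded genes. The members are all libraries of the matrix s6G, s4U and APEX-only arms, taken by their labels, and 4 unlabelled matrix libraries and 8 nuclear lamina libraries served for comparison. Each of 3 arms had 2 biological replicates, and each replicate gave an input library and a library enriched on streptavidin beads. The s6G arm received 100 uM 6-thioguanosine and the s4U arm 100 uM 4-thiouridine for 5 h in all, and in the closing 30 min of that pulse biotin-phenol (0.5 mM) was present in both. Labelling was started by adding 1 mM hydrogen peroxide and lasted 1 min. Cells of the APEX-only arm were treated in the same way without a thionucleoside. All cells of these arms carried the same matrix construct, called MITO in the labels, and the RNA was poly(A)-selected. For comparison, the unlabelled matrix cells received the same hydrogen peroxide but neither thionucleoside nor biotin-phenol. The lamina cells, with another construct, had an s6G and an APEX-only arm at the same doses and times. The 8 libraries of the matrix thionucleoside arms formed 4 pairs of enriched and input library, and the 4 matrix APEX-only libraries formed 2. The quantity compared was a difference of enrichments: the log2 ratio of enriched to input in the 4 pairs with a thionucleoside, minus the same ratio in the 2 pairs without. A positive difference means that a transcript was recovered better, relative to its own input, when the cells had been given s6G or s4U.

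With hydrogen peroxide, APEX2 oxidises biotin-phenol to a reactive radical that biotinylates RNA and protein close to the enzyme, and streptavidin beads then pull down the labelled RNA. Cells build 4-thiouridine and 6-thioguanosine into RNA in place of uridine and guanosine while RNA is being made, so that only RNA transcribed during the pulse carries them. The series title describes such electron-rich nucleosides as an aid to peroxidase labelling of nascent RNA. In a pulse of hours, RNAs with a short half-life are replaced largely by new molecules, whereas long-lived messages, such as those for ribosomal proteins and the respiratory chain, remain mostly old.

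Enriched libraries held 2720817 to 6890758 counts and inputs 3514076 to 5725612. Nuclear-encoded genes made up 41.8 to 73.7% of the counts after enrichment and 94.1 to 96.4% of the inputs, the rest being mitochondrially encoded. The log2 ratio of that share, enriched over input, was -0.69 ± 0.34 in the thionucleoside pairs (SD, n = 4) and -0.61 ± 0.079 in the APEX-only pairs (SD, n = 2), a difference of -0.083 (exact permutation test, 2-sided p = 1, smallest possible p 0.133). The second s6G pair had the lowest value of the 6, -1.17, and without it the difference was 0.078. All 6 markers of the HEK293 line were above 0 in all 12 libraries, among them vimentin (VIM, 115 to 406 CPM) and the neurofilament NEFM (132 to 507 CPM). The defining blood and endothelial genes PTPRC, CD3E and CDH5 were at 0 in all 12, and 10 such markers of other cells summed to 0.290 to 4.58 CPM in enriched libraries and 0.699 to 6.44 CPM in inputs. CPM is the count as a rate of the library total after TMM scaling (trimmed mean of M-values). In bulk libraries a lower level per cell and a smaller share of cells with the RNA cannot be told apart.

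With a thionucleoside, 743 nuclear-encoded genes were enriched more strongly and 429 less strongly than with APEX labelling alone, once each enriched library was compared with its own input. These are edgeR calls at an adjusted p under 0.05 with a replicate block, that is, with a term for each pair, among 13847 nuclear-encoded genes tested. Over all 13865 tested genes the calls were 744 higher (5.37%) and 429 lower (3.09%). The 1 mitochondrially encoded gene among them was MT-ATP8, a subunit of ATP synthase, at 0.63 ± 0.21. Without the block, the fit as designed called 0 genes with edgeR (896 nuclear-encoded genes at an unadjusted p under 0.05, smallest adjusted p 0.75). DESeq2 without the block called 2, PAFAH1B2 and CDCA4. The blocked count rested on few residual degrees of freedom, 3, and was 46 (0.304%) when the 4 unlabelled matrix libraries shared the fit and 30 when libraries were scaled by total counts. All 1173 calls kept their sign in both of these settings. Without the first s6G pair 527 genes were called, without the first s4U pair 591 and without the first APEX-only pair 760.

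The genes described next were those with the largest rises where expression was at least 4 on the log2 CPM scale. The rule also asked that the arms' pairs did not overlap, so the APEX-only pairs lie below the thionucleoside pairs by choice. Whether a single pair lies above or below 0, here and in the genes that follow, is on the TMM scale and was not compared under other scalings. PAFAH1B2 (ENSG00000168092, chr11:117144287-117178173 in GRCh38.p14) encodes a catalytic subunit of an acetylhydrolase that inactivates platelet-activating factor. Its log2 enrichment was 0.29 and 0.25 in the s6G pairs, 0.72 and 0.42 in the s4U pairs and -1.22 and -1.20 in the APEX-only pairs. The paired difference was 1.64 ± 0.21 (SE, 4 against 2 pairs, edgeR adjusted p = 1.74e-07). CDCA4 (chr14:105009573-105021083), a regulator of E2F-dependent transcription, had 0.60, 0.59, 0.57 and 0.50 with a thionucleoside and -0.98 and -1.16 without, a difference of 1.67 ± 0.23 (edgeR adjusted p = 1.10e-06). The 4 thionucleoside values of CDCA4 thus lay within a narrow band that neither APEX-only pair approached.

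NUDT19, a nudix hydrolase of coenzyme A, had 0.37, 0.27, 0.06 and 0.05 with a thionucleoside and -2.19 and -1.31 without. BACH1, a haem-regulated repressor of transcription, had 0.64, 0.49, 0.64 and 0.21 against -1.45 and -1.06. CDC42EP4, an effector of the GTPase CDC42, had 0.21, 0.81, 0.04 and 0.14 against -1.56 and -1.36. In each of these 3 genes, the lowest thionucleoside pair stood more than 1 log2 unit above the highest APEX-only pair. The differences were 1.84 ± 0.28 for NUDT19, 1.76 ± 0.26 for BACH1 and 1.77 ± 0.26 for CDC42EP4. TMEM64 (2.13 ± 0.33), KLHL11 (1.82 ± 0.36), TMEM170A (1.76 ± 0.28) and LONRF3 (1.67 ± 0.33) completed the protein-coding genes of this group. These 9 genes and the p53 regulator MDM2, described with its pathway, were called in all 14 other fits made with a replicate block, as was the falling pseudogene MTCO1P12. Of the 10 named genes with the largest rises, 9 were also called from the enriched libraries alone, without any block (LONRF3 was the other, at an adjusted p of 0.062 in edgeR). The genes were chosen on a difference that contains these same libraries, so this is not separate support.

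RN7SL2 had the largest difference among the genes above that expression level with no overlap of pairs, 2.49 ± 0.43, but from a different starting point. It is a copy of 7SL RNA, the RNA of the signal recognition particle, which has near-identical copies whose reads the counting may have split. Its enrichment was -4.46 and -3.41 with s6G, -2.52 and -1.63 with s4U and -5.11 and -5.29 with APEX alone, so that it was depleted in all 6 pairs. Its input level was much the same in all arms, 60.4 to 91.9 CPM. After enrichment it had 3.20 and 7.23 CPM with s6G, 12.0 and 27.6 with s4U and 1.32 and 1.91 with APEX alone. The difference therefore rests on few reads in the enriched APEX-only and s6G libraries.

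**Figure D1:**
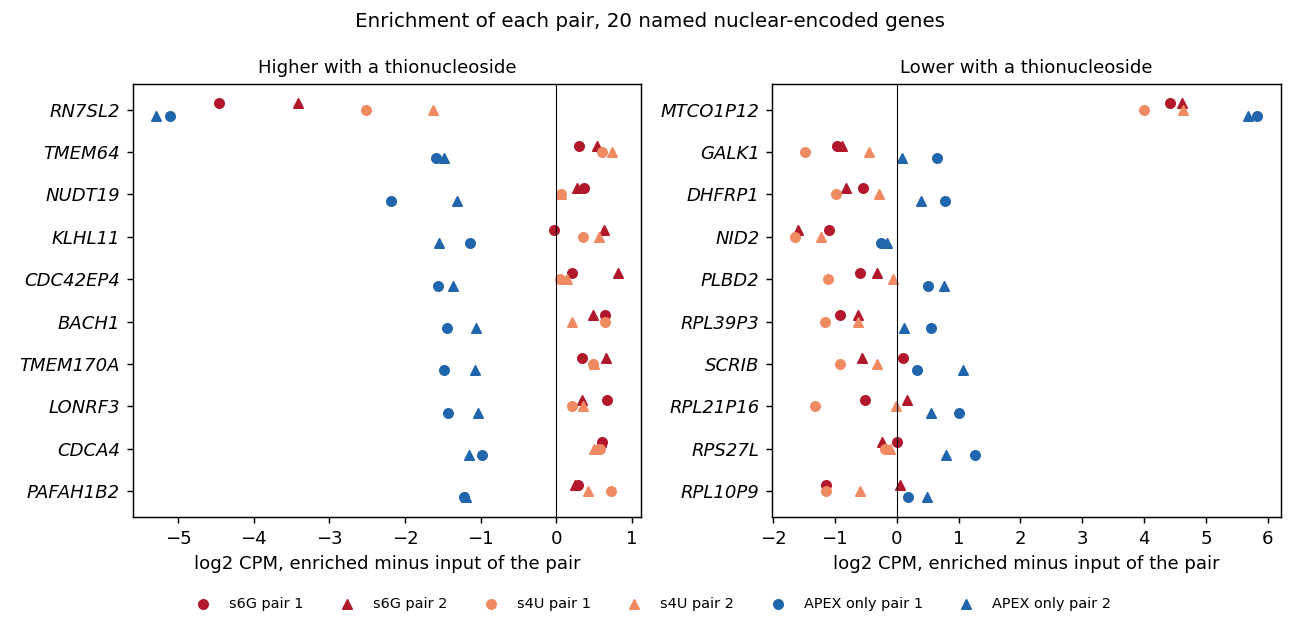
Log2 enrichment of each pair (CPM of the enriched library minus CPM of its input, log2 scale) for the 10 named genes with the largest rises (left) and the 10 with the largest falls (right). Each gene has 4 points for thionucleoside pairs and 2 for APEX-only pairs, which do not overlap in any of these genes because the naming rule asked for that.

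Under the same rule of expression and non-overlap, the genes that fell most were a mixed set. Larger falls were called outside this rule, the largest of 3.25 log2 units, and PSMC4 was at -2.10. GALK1, the galactokinase, had -0.97 and -0.88 with s6G, -1.49 and -0.45 with s4U and 0.65 and 0.09 with APEX alone, a difference of -1.31 ± 0.23 (edgeR adjusted p = 1.41e-04, 4 against 2 pairs). NID2, a nidogen of the basement membrane, had -1.09, -1.60, -1.64 and -1.22 against -0.25 and -0.15 (difference -1.19 ± 0.27). PLBD2, a lysosomal phospholipase B-like protein, had -0.60, -0.32, -1.11 and -0.06 against 0.51 and 0.77 (difference -1.19 ± 0.24). In all 3 the thionucleoside pairs were depleted, and the APEX-only pairs lay near or above their inputs. SCRIB, a scaffold of cell polarity, and RPS27L, a ribosomal protein S27 paralog, fell by 1.17 and 1.15. The other 5 of the 10 were pseudogenes, namely RPL39P3, RPL21P16 and RPL10P9 of ribosomal protein genes, DHFRP1 of dihydrofolate reductase and MTCO1P12, a nuclear copy of mitochondrial MT-CO1. Reads of such copies cannot be separated from those of their parent genes here, and MTCO1P12 was enriched in all 6 pairs (3.99 to 5.83).

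Pseudogenes were 19 of the 421 genes with a RefSeq entry in the lower group (4.51%), near the 4.11% of all tested genes, and 2 of 733 in the higher group (0.27%). The higher group was 98.9% protein-coding, against 91.4% of all tested genes. Gene span had medians of 32.9 kb in the higher group, 27.0 kb in the lower group and 29.6 kb over all tested genes. Genes under 5 kb made up 7.37% of the higher group, 16.4% of the lower group and 12.1% of all. Mean expression was higher in both groups (median log2 CPM 5.35 and 6.00) than over all genes (4.49). These are descriptions with no test, and counts are more precise for abundant genes.

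A difference of enrichments can arise in the enriched libraries or in the inputs, and the 2 groups differed in this. In the higher group the median difference between arms was 0.97 in the enriched libraries and -0.05 in the inputs, and 739 of 743 genes lay above 0 in the enriched libraries. In the lower group it was -0.55 in the enriched libraries and 0.29 in the inputs, where 355 of 429 genes lay above 0. The lower calls thus combined a smaller amount after enrichment with a larger amount in the input. Compared over the enriched libraries alone, without a block, edgeR called 176 genes higher (1.27%) and 97 lower (0.7%) with a thionucleoside. Of these, 122 and 28 were also among the paired calls of the same direction, and 0 were called in the opposite one. That count fell to 0 or 1 without either s6G enriched library, either APEX-only enriched library or the first s4U enriched library, and to 1 with total-count scaling. Over the inputs alone edgeR called 0 genes in all (1307 nuclear-encoded genes at an unadjusted p under 0.05), and DESeq2 58. In the s6G inputs taken alone edgeR called 13 genes higher (0.0938%), none of them among the paired calls.

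**Figure D2:**
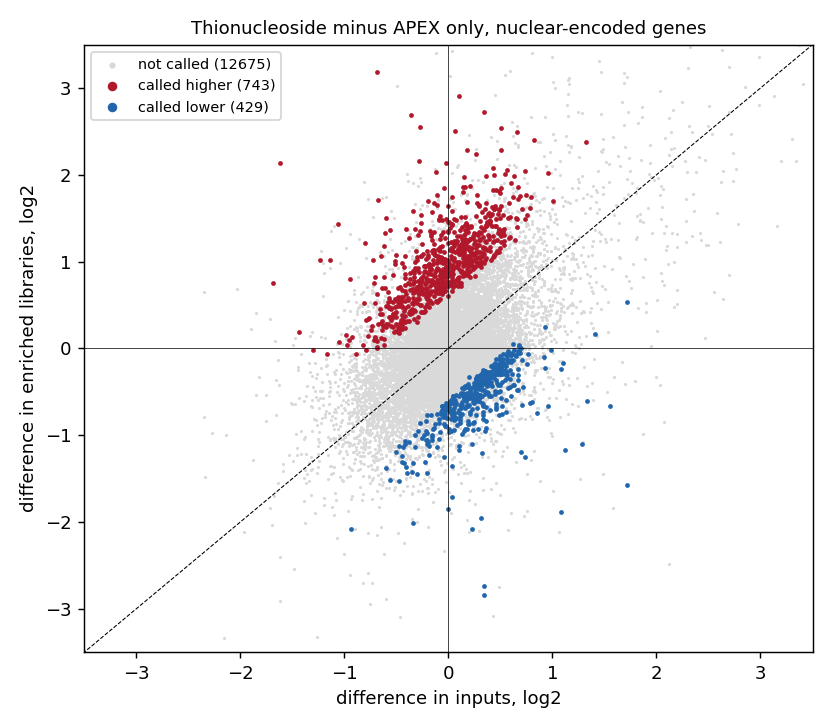
Log2 difference between the thionucleoside arms and the APEX-only arm in inputs (horizontal) and in enriched libraries (vertical), 1 point per nuclear-encoded gene, with the 743 genes called higher in red and the 429 called lower in blue. The dashed line marks equal differences, and 67 genes, 2 of them called, lie outside the axes. Red points gather around 0 on the horizontal axis, whereas most blue points lie to its right.

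Enrichment within each arm, given side by side because both differences share the APEX-only libraries, had a median of -0.66 in the APEX-only arm and 0.36 in the thionucleoside arms for the higher group. For the lower group the medians were 0.39 and -0.44. The sign of an enrichment within an arm depends on the scaling: with TMM and group means, edgeR called 298 genes higher and 383 lower after enrichment in the thionucleoside arms, and 58 and 4586 with total counts. In the APEX-only arm it called 52 and 4 with TMM, and 37 and 1898 with total counts.

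Several lists of genes known for short-lived mRNAs had members among the rises. RNA half-lives were not measured here, and a link between them and the rises or falls was not tested. Lists described further below were not sorted by half-life and may also hold short-lived mRNAs. Immediate-early genes are switched on within minutes of a stimulus, and their mRNAs decay fast. Of 36 tested members 10 were called higher (27.8%, beside 5.37% of all tested genes) and 0 lower. The median difference was 0.76, beside 0.00 over all nuclear-encoded genes. The 10 were KLF6, SRF, SGK1, DUSP1, NR4A1, JUND, MYC, ZFP36L2, JUNB and MAFF. KLF6, a zinc finger transcription factor, had 54.9 and 67.9 CPM in the s6G inputs and 93.8 and 138 CPM after enrichment. In the s4U arm it had 29.1 and 36.8 CPM before and 59.7 and 63.7 CPM after enrichment, and in the APEX-only arm 35.5 and 34 CPM before and 25.9 and 35.0 CPM after. All 4 thionucleoside pairs had more after enrichment, by 0.77 to 1.02, and the APEX-only pairs had -0.45 and 0.04. The difference was 1.08 ± 0.23 (edgeR adjusted p = 0.0017). DUSP1, a phosphatase of MAP kinases, differed by 1.15 ± 0.26 and JUNB, a subunit of AP-1, by 1.49 ± 0.36, though the JUNB pairs overlapped. Leaving out the second APEX-only pair left 3 members called and the first s4U pair 5, and the other pairs 9 to 14.

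Developmental regulators with short-lived mRNAs had 9 of 31 members called higher (29.0%, beside 5.37% of all tested genes) and 0 lower (median 0.61). SOX9, a transcription factor of progenitor cells, had 21.4 and 20.7 CPM after enrichment with s6G, 18.9 and 16.6 with s4U and 7.90 and 5.89 with APEX alone. Its inputs overlapped between arms, at 16.5 and 16.9, 15.6 and 11.0, and 11.8 and 14.7 CPM. The difference was 1.40 ± 0.35. ID4, an inhibitor of basic helix-loop-helix factors, differed by 1.09 ± 0.22 and FOXD1, a forkhead factor, by 1.17 ± 0.27. SOX4, MSX1, HEY1, AXIN2 and FOXC1 were also called. In this list the inputs scarcely differed between arms (median -0.07), and the enriched libraries differed by 0.57. Without the first s4U pair 4 members were called.

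p53 target genes had 7 of 25 members called higher (28%, beside 5.37% of all tested genes) and 0 lower (median 0.38). The 7 were MDM2, ZMAT3, PPM1D, CDKN1A, SESN2, TP53INP1 and AEN. MDM2, the ubiquitin ligase that degrades p53, had 62.4 and 39.8 CPM in enriched s6G libraries, 83.4 and 60.1 in s4U and 14 and 28.4 in APEX-only libraries. Its inputs were 56.2 and 37.0, 66.9 and 46.1, and 46.2 and 62.9 CPM. The enriched levels of the APEX-only arm were below those of all 4 thionucleoside libraries, while the inputs overlapped. The difference was 1.59 ± 0.24 (edgeR adjusted p = 4.97e-06), with an adjusted p of at most 0.017 in edgeR and the other blocked fits. PPM1D, a phosphatase that shuts down the p53 response, differed by 1.05 ± 0.26 and ZMAT3, an RNA-binding protein, by 1.24 ± 0.33. The other 18 members were not called, and 8 of the 25 paired differences lay below 0. At the median the list differed by 0.02 in the inputs and by 0.13 in the enriched libraries, with 13 members above 0 in each.

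Zinc finger genes named ZNF, most of which encode repressors of transcription, had 28 of 357 members called higher (7.84%), near the 5.37% of all tested genes, and 1, ZNF580, lower (median 0.28). ZNF714 had enrichments of 0.10, 0.26, 0.18 and 0.14 with a thionucleoside and -1.23 and -1.29 without, a difference of 1.46 ± 0.26. In the blocked fit 255 of the 357 differences lay above 0. Without the first s4U pair 15 members were called higher and without the first s6G pair 17. Cholesterol synthesis moved little as a list (median 0.02), with 2 of 23 called higher (8.70%), the sterol oxidase MSMO1 (1.36 ± 0.27) and the sterol sensor partner INSIG1 (0.92 ± 0.21). Replication-dependent histones had a median of 0.58 and 1 of 18 members called higher (5.56%), H1-4, a linker histone. It had 3.52 to 11.7 CPM in the 4 enriched thionucleoside libraries and 0 in both enriched APEX-only libraries. Histone mRNAs end without a poly(A) tail, their levels were low, and their inputs also lay higher with a thionucleoside (median 1.35).

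**Figure D3:**
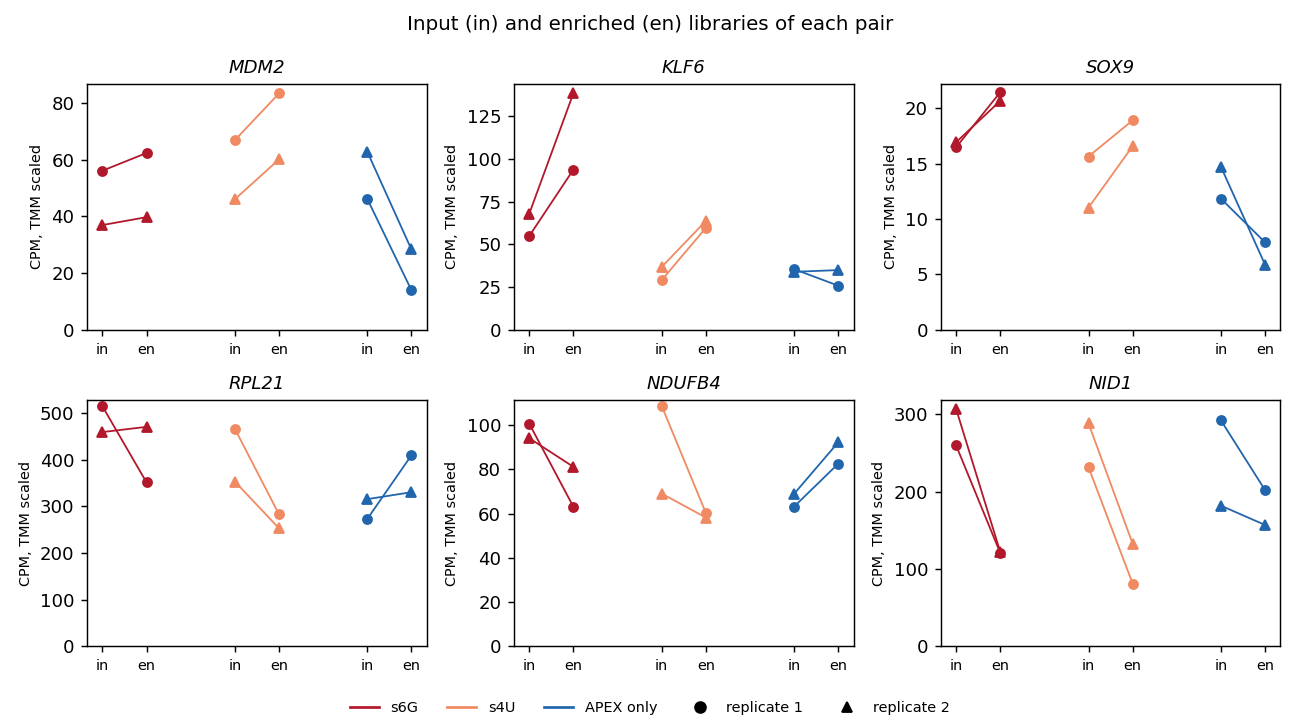
Level of 6 genes (CPM, TMM scaled, linear axes from 0) in each input (in) and enriched (en) library, with a line for each pair. Lines of MDM2, KLF6 and SOX9 rise or stay level in both thionucleoside arms, and lines of RPL21 and NDUFB4 fall in most thionucleoside pairs and rise in the APEX-only arm.

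Messages known for long half-lives were found among the falls. Cytosolic ribosomal protein genes had 23 of 76 members called lower (30.3%, beside 3.09% of all tested genes) and 0 higher (median -0.54). Of the 76 differences, 73 lay below 0. Genes for translation factors of the TOP class had 5 of 18 called lower (27.8%) and 0 higher (median -0.49): EIF3E, EIF3L, EIF3H, EEF1B2 and NACA. mRNAs of both lists begin with a 5′ terminal oligopyrimidine tract, a C followed by pyrimidines, through which their translation is controlled. Shown are 5 called members that hold such a tract near the annotated start, those with the smallest adjusted p among the members considered. Genes on the chromosome of EIF3E and RPS20 were left out of this choice, whatever their sequence. Both were called lower with a smaller adjusted p than RPL29 and RPSA. The sequences have 10 bases before the start and 15 from it, 5′ to 3′ on the gene's strand, from RefSeq promoter sequences of GRCh38.p14. Capitals mark the run of C and T that opens with C.
RPL21 (chr13:27251548-27251572, plus strand): ccgCCTCTTTCCTTTCggccggaac
RPS13 (chr11:17077653-17077677, minus strand): ctctcgCTCTCCTTTCgttgcctga
RPL35 (chr9:124861943-124861967, minus strand): cgcctaCTTCCTCTTTCCCTCggag
RPL29 (chr3:51995881-51995905, minus strand): cagCCCCTTTCTCTTCCggttctag
RPSA (chr3:39406710-39406734, plus strand): tgccgcctgtCTTTTCCgtgctacc
A C followed by at least 6 pyrimidines lay in this window, on the gene's strand only, in 45 of 60 ribosomal protein promoters (75%) and 13.2% of the 10403 tested genes with a promoter entry. Among ribosomal protein genes called lower it lay in 12 of 20 (60%). It lay in 74 of 339 promoters of genes called lower (21.8%), in 19.6% of those outside both lists and in 82 of 612 promoters of genes called higher (13.4%). A match describes the letters only.

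RPL21, the first of these, had 515 and 459 CPM in the s6G inputs, 466 and 353 in the s4U inputs and 273 and 316 in the APEX-only inputs. After enrichment it had 351 and 470, 283 and 253, and 409 and 330 CPM. The APEX-only inputs were the lowest, while the enriched libraries overlapped between arms. The paired difference was -0.75 ± 0.20 (edgeR adjusted p = 0.0101). RPS13 (-0.73 ± 0.20), RPL35 (-0.75 ± 0.21), RPL29 (-0.71 ± 0.21) and RPSA (-0.72 ± 0.22) fell by similar amounts. For the whole list the inputs lay higher with a thionucleoside in 76 of 76 members (median 0.55, 0 called), and the enriched libraries differed by -0.01 at the median. The counts for this list turned on the APEX-only pairs: without the first, 0 members were called (median -0.21), and without the second, 57 (median -0.85). Leaving out the first s6G pair left 1, the first s4U pair 3, the second s6G pair 15 and the second s4U pair 14. Many processed pseudogenes share ribosomal protein sequences, so single members are uncertain.

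EIF3E, a subunit of the initiation factor eIF3, had enrichments of -0.69, -0.66, -0.19 and -0.57 with a thionucleoside and 0.32 and 0.35 without. Its difference was -0.87 ± 0.19 (edgeR adjusted p = 0.0019), made up of -0.61 in the enriched libraries and 0.24 in the inputs, neither of which was called by itself. EIF3L (-0.80 ± 0.20) and EIF3H (-0.63 ± 0.20), subunits of the same factor, were called in the same direction. The number of these factors called was 1 without the first APEX-only pair, 2 without the second s6G or the first s4U pair and 3 without the first s6G pair.

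Nuclear genes for respiratory chain subunits had 20 of 76 members called lower (26.3%, beside 3.09% of all tested genes) and 0 higher (median -0.51). Of the 76 differences, 69 were below 0. NDUFB4, an accessory subunit of complex I, had enrichments of -0.67 and -0.21 with s6G, -0.84 and -0.24 with s4U and 0.38 and 0.42 with APEX alone, a difference of -0.91 ± 0.21 (edgeR adjusted p = 0.0035). UQCRC2, a core protein of complex III, had -0.14, -0.61, -0.35 and -0.70 against 0.35 and 0.53 (difference -0.89 ± 0.20), and ATP5F1C, the gamma subunit of ATP synthase, differed by -0.75 ± 0.19. NDUFS1 and 16 other subunits were called with them. In all of the 3 genes described, the thionucleoside pairs were depleted and the APEX-only pairs were above their inputs. Without the first APEX-only pair 3 members were called, without the first s6G pair 4, and without the second APEX-only pair 30. Mitochondrial ribosomal proteins, also nuclear-encoded, had 2 members higher (MRPL49 and MRPS17) and 3 lower (MRPL13, MRPL23 and MRPL33) of 74, with a median of -0.17. These shares, 2.70% and 4.05%, were near or below the 5.37% higher and 3.09% lower of all tested genes. Carriers and import components had 4 higher (PNPLA8, TOMM70, SLC25A32 and SLC25A33) and 2 lower (SLC25A39 and TIMM17B) of 37 (10.8% and 5.41%), with a median of -0.08.

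Secreted and extracellular matrix proteins had 11 of 35 members called lower (31.4%, beside 3.09% of all tested genes) and 0 higher (median -0.50). NID1, a nidogen that links laminin to collagen, had 260 and 307 CPM in s6G inputs, 232 and 288 in s4U inputs and 292 and 182 in APEX-only inputs. After enrichment it had 121 and 122, 81.3 and 133, and 202 and 157 CPM. It was depleted in every pair, and the enriched APEX-only libraries held the highest levels. The difference was -0.89 ± 0.20 (edgeR adjusted p = 0.0018). COL4A1, a basement membrane collagen, differed by -0.91 ± 0.23, and fibronectin (FN1), LAMA3, LAMA5, LAMB1, LAMB2, COL4A6, COL6A1, COL18A1 and NID2 were the other members called. Without the first s6G pair 4 were called, without the first s4U pair 5 and without the first APEX-only pair 6. Lysosomal proteins had 4 of 30 called lower (13.3%, median -0.34), namely NPC2, TPP1, LIPA and GAA. NPC2, a cholesterol carrier, differed by -0.97 ± 0.23. Without the first APEX-only pair 0 lysosomal genes were called, and without the second s6G pair 2. By contrast, chaperones and translocation factors of the endoplasmic reticulum had 2 higher (DNAJC3 and PDIA4) and 2 lower (RPN2 and HSP90B1) of 36 (5.56% each way), with a median of -0.07.

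Among the remaining lists, host genes of small nucleolar RNAs had 4 of 24 called lower (DANCR, SNHG6, SNHG12 and SNHG19) and SNHG16 higher (median -0.42). Glycolytic enzymes had PGK1 and LDHA lower of 18, with a median of -0.43 and 17 differences below 0. Genes of the NRF2 oxidative stress response had TXN and FTL lower of 19 (median -0.41), and proteasome subunits had PSMA4 and PSMC4 lower of 31 (median -0.27), with 0 members higher in these 3 lists. Of 42 genes for nucleoside uptake, salvage and synthesis, 1 was called, HPRT1, the salvage enzyme that acts on guanine and hypoxanthine, at -0.85 ± 0.20. RNA polymerase II elongation genes had POLR2D (1.07 ± 0.21) and CCNT1 higher of 30. Heat shock chaperones had DNAJB1 and HSPA8 higher (11.8%) and HSPB1 lower (5.88%) of 17. Mitotic and cell-cycle genes had AURKA and CCNE1 higher of 36 with a median of -0.01. In the integrated stress response JDP2 was called higher (of 24), among nuclear long noncoding RNAs OIP5-AS1 (of 14), and TMSB10 and PNISR were called lower among 16 actin and tubulin genes and 32 splicing genes. Over all tested genes 5.37% were called higher and 3.09% lower. The share called higher was near this in the elongation (6.67%), mitotic (5.56%), stress response (4.17%) and noncoding lists (7.14%). The share called lower was near it among nucleoside (2.38%) and splicing genes (3.1%). It was larger, though from few genes, in the host gene (16.7%), glycolytic (11.1%), NRF2 (10.5%), proteasome (6.45%) and actin lists (6.25%).

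The lists with a median further than 0.2 from 0 kept its sign under every blocked setting tried, but fewer members were called in some. With DESeq2 and the block, 5 immediate-early genes, 4 developmental regulators, 4 p53 targets and 10 ZNF genes were higher, and 15 ribosomal protein, 11 respiratory chain and 6 secreted protein genes lower. With total-count scaling or with the unlabelled libraries in the fit, 0 members of the immediate-early, developmental, ribosomal protein, respiratory chain and secreted lists were called, and 1 p53 target.

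**Figure D4:**
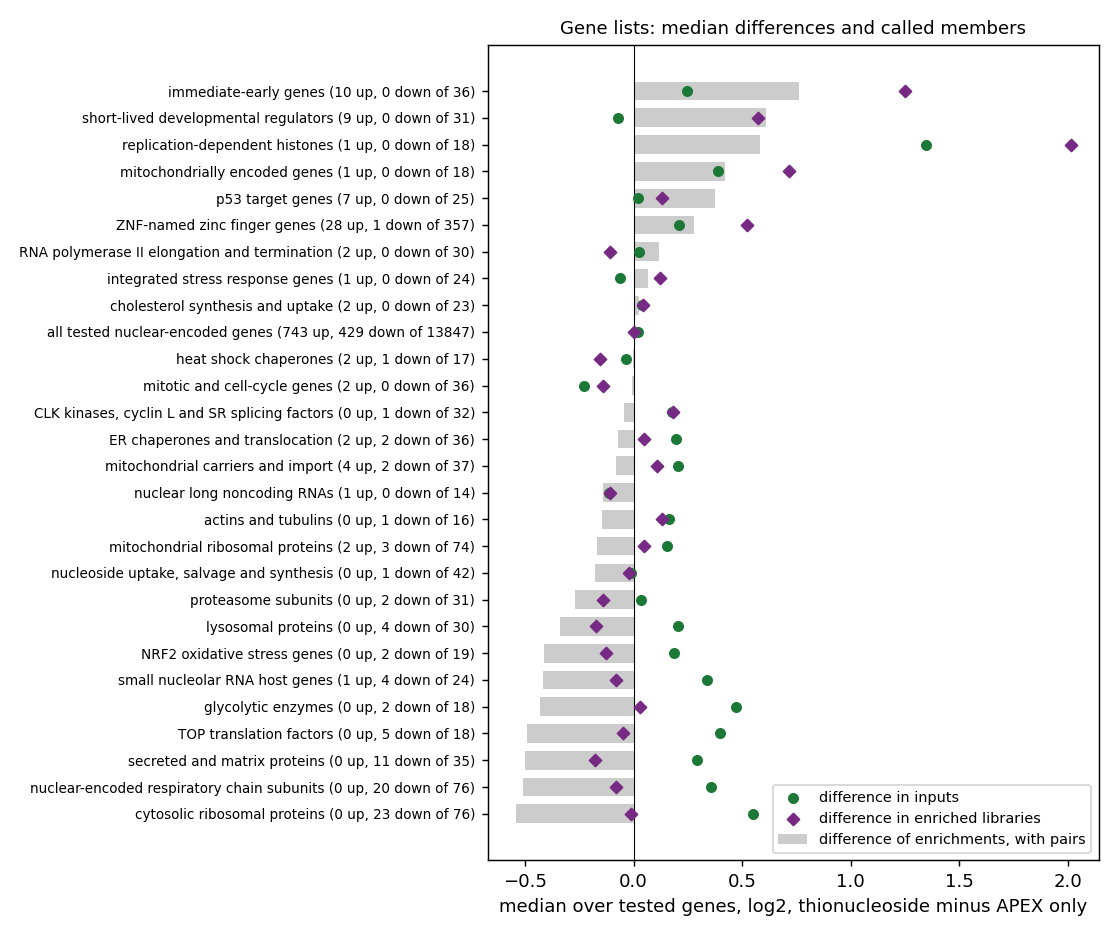
Median over the tested members of each gene list of the log2 difference of enrichments (grey bars), the difference in inputs (green circles) and the difference in enriched libraries (purple diamonds), thionucleoside minus APEX only. Labels give the members called higher (up) and lower (down) with the replicate block. Immediate-early genes lead at 0.76 with their diamond far right of the circle, and ribosomal proteins close the order at -0.54 with the diamond near 0 and the circle at 0.55.

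s6G, a purine, and s4U, a pyrimidine, were compared at the same dose and time. Against the same APEX-only libraries, edgeR with the block called 409 genes higher (2.95%) and 127 lower (0.916%) with s6G and 569 higher (4.1%) and 330 lower (2.38%) with s4U. Without the block it called 0 for either (630 and 717 nuclear-encoded genes at an unadjusted p under 0.05), and DESeq2 called 0 for s6G and 1, RN7SL2, for s4U. The medians were 0.97 and 0.99 in the higher group and -0.75 and -0.82 in the lower group, for s6G and s4U. The genes were chosen on the mean of both differences, which share the APEX-only libraries, so these values are a description. ITGAV, an integrin chain, was among the largest s6G falls, at -1.38 with s6G and -0.82 with s4U, and ADAM23, a membrane protein of the ADAM family, among the largest s4U falls, at -0.43 and -1.33.

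The difference between s6G and s4U was tested directly. With the block, edgeR called 2 nuclear-encoded genes (0.0144%), RN7SL2 and MIR3648-1, both lower with s6G, and 0 without the block (135 at an unadjusted p under 0.05). For the 1172 genes called against APEX alone, the 95% interval of the s6G to s4U difference had a median half-width of 0.54 on the log2 scale. It included 0 for 1080 of them and lay within 1 log2 unit of 0 for 874. For the remaining 298 a difference of that size between the nucleosides was not bounded at this precision. FOSB, an AP-1 subunit, differed by 1.80 against APEX alone with s6G and 0.75 with s4U, but its s4U and APEX-only pairs overlapped. KLF6 differed by 1.07 and 1.08, RPL21 by -0.58 and -0.92, and NDUFB4 by -0.85 and -0.97.

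Binding to the beads without any label was measured in the unlabelled matrix arm, with 2 pairs of enriched and input library. Its cells received hydrogen peroxide but neither thionucleoside nor biotin-phenol. PAFAH1B2 had an unlabelled enrichment of -1.68 ± 0.35 and MDM2 of -1.62 ± 0.62, near their APEX-only values of -1.20 to -1.22 and -1.13 to -1.69. CDCA4 had 0.29 ± 0.30, while its APEX-only pairs had -0.98 and -1.16. At the median the higher group stood at -0.68 in the unlabelled arm and -0.66 in the APEX-only arm, and the lower group at -0.11 and 0.39, beside -0.21 and -0.04 over all tested nuclear-encoded genes. The groups were chosen in part by their APEX-only values. Across the 8123 nuclear-encoded genes expressed at 4 or more on the log2 CPM scale, unlabelled enrichment correlated with APEX-only enrichment at Pearson r = 0.24 (Spearman 0.26), with s6G enrichment at 0.04 (0.05) and with s4U enrichment at -0.05 (-0.04). These are correlations across genes, which are not independent replicates, and the unlabelled arm shares no library with the others. The enriched unlabelled libraries held 123341 and 842177 counts, far fewer than the labelled ones, which limits the precision of each value.

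A separate construct gave the s6G comparison in other libraries. Cells with APEX2 fused to LMNB1 at the nuclear lamina had 2 pairs with s6G and 2 with APEX alone, and none of these 8 libraries entered the matrix fits. The titles and the series design name s6G for those pairs, while another label field names s4U, and the titles were followed. With the block, edgeR called 2064 genes higher (13%) and 2041 lower (12.9%) of 15866 tested. Without it edgeR called 308 higher (1.94%) and 349 lower (2.2%), and 0 were left on leaving out either APEX-only enriched library or any of the 4 inputs, and 269 without the second s6G enriched library.

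Genes lower in the matrix were often lower at the lamina too. Lamina calls here are those with the block unless stated. Of 428 such genes tested in both, 197 were called lower at the lamina (46.0%) and 16 higher (3.74%), with a median lamina difference of -0.54. Over all 13707 nuclear-encoded genes in both fits the shares were 14.6% and 14.9%. Of the 743 genes higher in the matrix, 148 were higher at the lamina (19.9%) and 98 lower (13.2%), nearer to the background, and their median lamina difference was 0.10. Without the lamina block, 54 of the 428 were called lower and 0 higher. Of the 743, 24 were then called higher and 10 lower, and of all 13707 genes 306 higher and 345 lower. Ribosomal protein genes had 28 of 76 members lower at the lamina and 0 higher, respiratory chain subunits 36 and 3 of 76, secreted proteins 16 and 0 of 35, and TOP factors 11 and 0 of 18. Lists with few calls in the matrix fell at the lamina as well. Chaperones and translocation factors of the endoplasmic reticulum had 24 lower and 0 higher of 36 (matrix median -0.07). Actins and tubulins had 10 and 0 of 16 (matrix median -0.15). Immediate-early genes, by contrast, had 4 higher and 4 lower of 35, with a median of -0.08, and developmental regulators 6 higher and 2 lower of 31.

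Single genes showed both patterns. NID1 (-1.50), NPC2 (-1.04) and EIF3E (-1.33) were called lower at the lamina as in the matrix. DUSP1, higher in the matrix, was called lower at the lamina (-0.93), as were MSMO1 (-0.83) and INSIG1 (-0.97), and the lamina differences of PAFAH1B2 (0.28), CDCA4 (0.33) and MDM2 (0.26) did not pass the test. RN7SL2 was called higher at the lamina by 3.98 ± 0.40, with enrichments of -2.18 and -2.20 with s6G and -5.87 and -5.57 with APEX alone. Across the 13707 genes the matrix and lamina differences correlated at Pearson r = 0.17 and Spearman 0.20, and at 0.24 and 0.26 for the 8123 genes above that level. This is a description across genes from 2 sets of libraries that share no library.

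**Figure D5:**
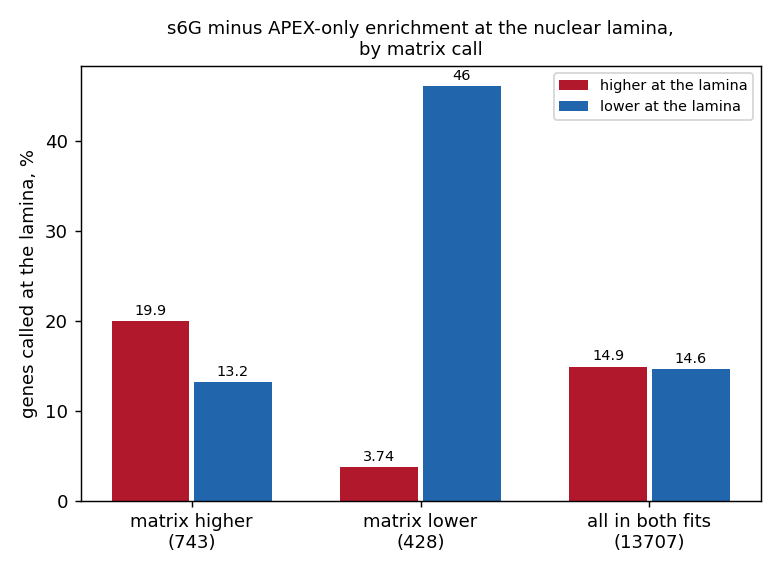
Percentage of genes called higher (red) or lower (blue) with s6G against APEX alone at the nuclear lamina, for genes called higher in the matrix, genes called lower in the matrix and all nuclear-encoded genes tested in both. All calls are those with the replicate block. Bars start at 0, and numbers of genes stand under each group. The blue bar of the matrix-lower genes, 46.0%, stands above the 14.6% of all genes.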

How the data were processed

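The authors deposited 1 table of raw counts per gene for all libraries. Per the submitters' processing notes HTSeq 0.7.2, HISAT2 2.1.0, DESeq2, SAMtools and deepTools 2.5.3 were used, with the builds GRCh38 and hg38 (annotation and strand setting: not given in the sources used here). Per the labels' protocols, 6.5 ug of RNA went to the beads, input libraries took 300 ng, and libraries had 11 (input) or 15 (enriched) PCR cycles, so counts are not independent molecules. Of 57992 gene IDs, 56948 had a symbol, and RefSeq gene and promoter tables of GRCh38.p14 gave positions.

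The 12 matrix libraries (6 groups of 2) were fitted together in R 4.3.3 with edgeR 4.0.16 (filterByExpr, TMM, robust quasi-likelihood F-test, prior count 2, Benjamini-Hochberg over all 13865 genes). The designed fit uses group means. The fit with a term for each pair (replicate block) is reported beside it, because the input and enriched library of 1 number are the same RNA before and after enrichment. Their deviations from group means correlated at 0.58 (s6G), 0.67 (s4U) and 0.53 (APEX only). Alternatives used DESeq2 1.42.0, limma-voom 3.58.1, other scalings, filters and samples, and the scripts were tested on simulated data. Errors are standard errors (±) unless called SD.

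Genes were named by rule: up to 10 per direction with the largest difference, expression of 4 or more (mean log2 CPM) and pairs that did not overlap, filled with block calls since the designed fit called none; up to 5 per direction for each nucleoside; and the 3 members of each of 26 lists with the smallest p in the direction of the list's median. Called list members outside this rule were named after their values were seen, and some called genes are not reported here. The comparison and the lists were chosen with earlier results of these data known.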

Additional observations from a re-analysis of the deposited data

Results flagged for a closer look

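The s6G and s4U arms differed by the direct edgeR test with the replicate block in 2 genes, both of which come in near-identical copies whose reads may have been split. RN7SL2, a 7SL RNA copy, differed by -1.97 ± 0.38 between s6G and s4U (edgeR adjusted p = 0.026, 95% interval -2.73 to -1.21), with both s6G pairs below both s4U pairs. MIR3648-1, a microRNA gene in the repeated ribosomal DNA, differed by -1.95 ± 0.40 (edgeR adjusted p = 0.036), with enrichments of 0.09 and 1.37 with s6G, 2.41 and 2.75 with s4U and 0.09 and -0.98 with APEX alone. Its inputs had 15.0 and 10.9 CPM with s6G, 4.56 and 8.93 with s4U and 1.62 and 2.14 without a thionucleoside. Neither was called without the block (adjusted p = 1.00 for each), with the stricter filter, with the 16-library fit, with DESeq2 or with limma-voom. With the block and 1 pair left out, the number of calls was 9 without the first s6G pair and 1, SBNO2, without the second s4U pair, neither gene being among them. It was 4 without the second s6G pair and 2 without either APEX-only pair, both genes included, and 2 without the first s4U pair, RN7SL2 and EGR1 (SBNO2 and EGR1 were named after their values were seen).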

How the results depend on the processing

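With a replicate block the thionucleoside comparison gave 1173 calls in place of 0, 536 for s6G, 899 for s4U and 2 between the nucleosides. The same block moved APEX-only enrichment from 56 to 2955, thionucleoside enrichment from 681 to 4561, the lamina comparison from 657 to 4105 and unlabelled enrichment from 1496 to 3102. Without the block, DESeq2 called 2, 1 for s4U, 372 for APEX-only enrichment, 1333 for thionucleoside enrichment, 839 over enriched libraries, 58 over inputs and 1122 at the lamina. No filter gave 10 (3 for s4U), 230, 1195, 848, 98 and 994 in that order, and the stricter filter 121, 1071 and 501 for the 3 that it moved. Total counts gave 1935 (37 higher), 4644 (58 higher) and 1, leaving out mitochondrial genes 26 for APEX-only enrichment, and 16 libraries 337 for thionucleoside enrichment and 85 over enriched libraries.

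Within the replicate block (alternatives chosen after seeing the data), total counts gave 30 calls, 29 of them among the 1173 (0 for s6G, 77 for s4U), 16 libraries 46 (9 and 17), DESeq2 427 (124 and 299) and both nucleosides as 1 group 875. For s6G against s4U, the stricter filter, 16 libraries, DESeq2 and limma-voom gave 0. The 1173 calls kept their sign in each blocked alternative that tested them, and 12 of the 76 named genes called were called in every one. Calls were 63.4% higher, 83.3% with total counts, 89.1% with 16 libraries and 76.7% with no filter.

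Leaving out 1 library or pair gave 0 for the thionucleoside, s6G, s4U, s6G against s4U and input comparisons, 0 to 201 over enriched libraries, 4 to 71 for APEX-only enrichment, 86 to 602 for thionucleoside enrichment, 0 to 713 at the lamina and -0.19 to 0.078 for the nuclear share. With the block and 1 pair left out the count was 527 to 1217, lowest without the first s6G pair (527), the first s4U pair (591) and the first APEX-only pair (760). Precision limits small differences: with 2 pairs per arm, the 95% interval of s6G against s4U had a median half-width of 0.68 on the log2 scale over all 13847 nuclear-encoded genes.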

Other observations

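Without enrichment, 13 genes were higher in s6G inputs than in APEX-only inputs (edgeR, group means, 0.0938% of tested genes), and 0 in s4U inputs (807 at an unadjusted p under 0.05). RBM15, an RNA-binding protein that guides RNA methylation, differed by 2.04 ± 0.29 with s6G (edgeR adjusted p = 0.026) and 0.55 with s4U. COL7A1, a collagen of the skin basement membrane, differed by 1.98 ± 0.30 and 0.85. ALPK3, AOC3, LAT2, MAPK13, MYO1G, NPC1L1, TSIX, UBA7 and VWCE were also called, and these genes were named after their values were seen. 0 of the 13 were called in the paired difference of enrichments.

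Of 36 mitotic and cell-cycle genes, 5 were called lower over the enriched libraries alone with a thionucleoside, beside 0.7% of all tested genes, among them TOP2A, a DNA topoisomerase of dividing cells (-1.08, edgeR adjusted p = 0.026), while its inputs differed by -0.62, which was not called, and its paired difference of -0.45 was not called.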
